A study of Mus musculus with 6 samples.

Results

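The 9 genes described here, Pdgfra, Vcan, Cspg4, Lhfpl3, Ptprz1, Tnr, Sox6, Xylt1 and Olig1, are a set of genes named for oligodendrocyte precursor cells, and they were chosen by name, not by a measured threshold. All 9 were found among the 19905 genes of the droplet table. The SCRB-Seq table (19006 mouse genes), the SMART-Seq2 bulk table (21987 genes) and the whole-series table of plate nuclei (23295 genes) each held 8 of them, and Lhfpl3 was not analysed there. The series profiled nuclear RNA of mouse brain that had been formalin-fixed and embedded in paraffin (FFPE), labelled as cortex of C57BL/6J mice of 8 to 12 weeks, with the nuclei taken from 50 µm scrolls. The bulk wells tested 3 ways of removing the paraffin (mineral oil with heat, xylene with heat, and xylene at room temperature) beside frozen nuclei. Single nuclei were profiled on plates with SMART-Seq2, a full-length cDNA method, and in droplets on the 10x platform. SCRB-Seq is a barcoded method that counts the 3′ ends of transcripts.

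SCRB-Seq covered 64 wells, 16 per method and 16 of frozen nuclei, and each set of 16 was split into 8 wells of 10 nuclei and 8 wells of 100 nuclei. The SMART-Seq2 bulk data held 12 wells, with 1 well each of 10, 50 and 100 nuclei per method. The plate data held 98 FFPE libraries in batch 1, 134 in batch 2 and 0 in batch 3, and the whole-series table set 143 FFPE libraries beside 137 frozen libraries. Of those 143, 134 carried the same values as batch 2 and the other 9 were in no batch table. The authors' annotation marks the FFPE plate nuclei as brain L and the frozen plate nuclei as brain R, so preservation and this mark cannot be told apart. Frozen wells and nuclei are known only from that annotation. The sources used here do not give the number of mice or name the wells as separate animals, so p-values for the wells measure the spread between wells, which may be technical.

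Oligodendrocyte precursor cells are the dividing cells of the adult brain that give rise to myelin-forming oligodendrocytes. They depend on platelet-derived growth factor, which acts through the receptor encoded by Pdgfra, and they are surrounded by chondroitin sulfate proteoglycans, large proteins that carry long sulfated sugar chains. Transcription factors of the Olig and Sox families act in the specification and the timing of this lineage.

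In the mm10 gene models (GENCODE M21, GRCm38), the receptor gene Pdgfra (ENSMUSG00000029231) spans chr5:75152292-75198215 on the plus strand. Among the proteoglycans, Vcan (versican) spans chr13:89655312-89742509 on the minus strand, Cspg4 (the NG2 proteoglycan) spans chr9:56865033-56899870 on the plus strand and Ptprz1 (a receptor-type phosphatase that carries chondroitin sulfate) spans chr6:22875502-23052916 on the plus strand. Tnr, which encodes the matrix glycoprotein tenascin-R, spans chr1:159523769-159931729, and Xylt1, which encodes the xylosyltransferase that starts the sugar chains of proteoglycans, spans chr7:117380979-117673580, both on the plus strand. The transcription factor gene Sox6 spans chr7:115470872-116038796 on the minus strand, and Olig1 spans chr16:91269772-91271933 on the plus strand. Lhfpl3, a gene of the LHFPL family of membrane proteins, spans chr5:22746059-23275597 on the plus strand.

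The RefSeq promoter windows (GRCm38.p6) gave 250 bases before to 50 bases after each gene's start for 7 of the 9 genes. The stretches before the start are shown for the 3 genes with the largest ratio between the precursor class and all other droplet nuclei, on each gene's own strand, with capitals for matches to GGGCGG on either strand. The Pdgfra stretch lies at chr5:75152001-75152250 on the plus strand, the Cspg4 stretch at chr9:56864854-56865032 on the plus strand and the Vcan stretch at chr13:89742513-89742762 on the minus strand. Each stretch stops before both the RefSeq and the GENCODE start, which leaves 179 bases for Cspg4.
Pdgfra: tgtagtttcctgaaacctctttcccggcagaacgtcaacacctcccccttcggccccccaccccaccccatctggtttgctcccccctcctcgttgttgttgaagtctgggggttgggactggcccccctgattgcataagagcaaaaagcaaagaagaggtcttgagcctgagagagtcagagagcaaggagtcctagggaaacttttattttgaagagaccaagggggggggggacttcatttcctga
Cspg4: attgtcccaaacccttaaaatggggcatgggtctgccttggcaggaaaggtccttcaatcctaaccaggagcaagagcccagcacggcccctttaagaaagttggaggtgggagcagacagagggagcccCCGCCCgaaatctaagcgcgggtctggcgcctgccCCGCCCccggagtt
Vcan: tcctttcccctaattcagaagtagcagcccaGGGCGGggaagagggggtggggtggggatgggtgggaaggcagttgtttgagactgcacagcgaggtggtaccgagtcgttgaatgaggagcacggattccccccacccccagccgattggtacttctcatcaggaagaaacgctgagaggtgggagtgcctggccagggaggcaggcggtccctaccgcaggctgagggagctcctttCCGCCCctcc
The full windows were searched on both strands for the E-box letters CAGCTG, for the E-box variant CATATG, for the SOX-type letters ACAAAG, for the related SOX-type word AACAAT, and for the GC-rich letters GGGCGG. The Pdgfra window held none of the 5, and the Cspg4 and Vcan windows held GGGCGG 2 times each and none of the other 4. Among 32851 mouse promoter windows of the same length, 35.7% held GGGCGG and 16.3% held CAGCTG. The letters ACAAAG were present in 18.7% of them, AACAAT in 10.7% and CATATG in 3.91%. The Lhfpl3 window held CAGCTG 2 times, with GGGCGG 1 time. The Ptprz1 window held GGGCGG 2 times, and the Tnr window held ACAAAG 1 time. Of the 6 windows of Sox6, 5 held ACAAAG, while 1 window each held CAGCTG (1 time), the word AACAAT (2 times) and the letters GGGCGG (4 times). A match describes the letters and no binding was measured.

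The depth behind these values was low. SCRB-Seq wells held 7512 to 167144 counts, with a median of 26385.5 for mineral oil and 58642.5 for frozen nuclei. SMART-Seq2 bulk wells held 270363 to 942966 counts. The plate libraries of the whole-series table had a median of 47887 counts for FFPE and 255329 for frozen nuclei. The 7031 droplet nuclei came from 1 library, carried 7031 distinct barcodes and had a median of 325 unique molecular identifiers (UMIs). No doublet caller was run on them, and how doublets were treated before deposit is not stated in the labels. Some plate libraries had nearly the same profile, while the median correlation between libraries was 0.20 for FFPE and 0.28 for frozen nuclei. Joining libraries whose log2 profiles correlated above 0.9 left 106 profiles among the 143 FFPE libraries and 78 among the 137 frozen libraries (84 and 51 with a threshold of 0.7), and the plate results are therefore given with and without the repeated profiles. The cause of the likeness was not tested. Intervals are 95% exact intervals and cover counting error only.

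The FFPE and frozen wells also differed in markers of other cell types. In SCRB-Seq, the 11 mature oligodendrocyte markers summed to 2490 CPM (counts scaled to a fixed library total) over the FFPE wells, with a range of 0 to 17467 per well. They summed to 420 CPM over the frozen wells, with a range of 129 to 850. Astrocyte markers summed to 1480 CPM in FFPE and 538 CPM in frozen wells, and excitatory neuron markers to 320 and 1276 CPM. Markers of cerebellar granule neurons, cells that a cortex sample would lack, reached 1011 CPM in the FFPE wells (204 to 5121) and 3.75 CPM in the frozen wells (0 to 50.8), where Gabra6 and Cbln3 were at 0. In SMART-Seq2, the oligodendrocyte markers summed to 2146 CPM in FFPE wells (884 to 3096) and 184 CPM in frozen wells (77.4 to 386, with Ermn at 0), and the granule neuron markers to 1086 and 0 CPM. The part of these markers in the results below was not tested.

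In the droplet nuclei, the class that the authors named oligodendrocyte precursor (OPC) held the highest level of 7 of the 9 genes. This class had 215 of 7031 nuclei (3.06%), a median of 340 UMIs and 76554 UMIs in all. The 9 genes together made up 7485 CPM of its UMIs (6885 to 8124). They made up 1764 CPM in astrocytes and 1213 CPM in the class ExNeuron4, the next in order. At least 1 of the 9 was seen in 161 of 215 OPC nuclei (74.9%) and in 1753 of 6816 other nuclei (25.7%). With each nucleus thinned to 300 UMIs, the shares were 105 of 141 (74.5%) and 1005 of 4310 (23.3%). The class was defined on these same nuclei and genes, so the values describe it and no test was made. Over 2734 genes with at least 200 UMIs, 11 (0.402%) were at least 4-fold higher in the class and 30 (1.1%) at least 4-fold lower. Of the members, 5 had at least 200 UMIs, and 4 of them (Lhfpl3, Tnr, Sox6 and Xylt1) were among the 11.

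**Figure D1:**
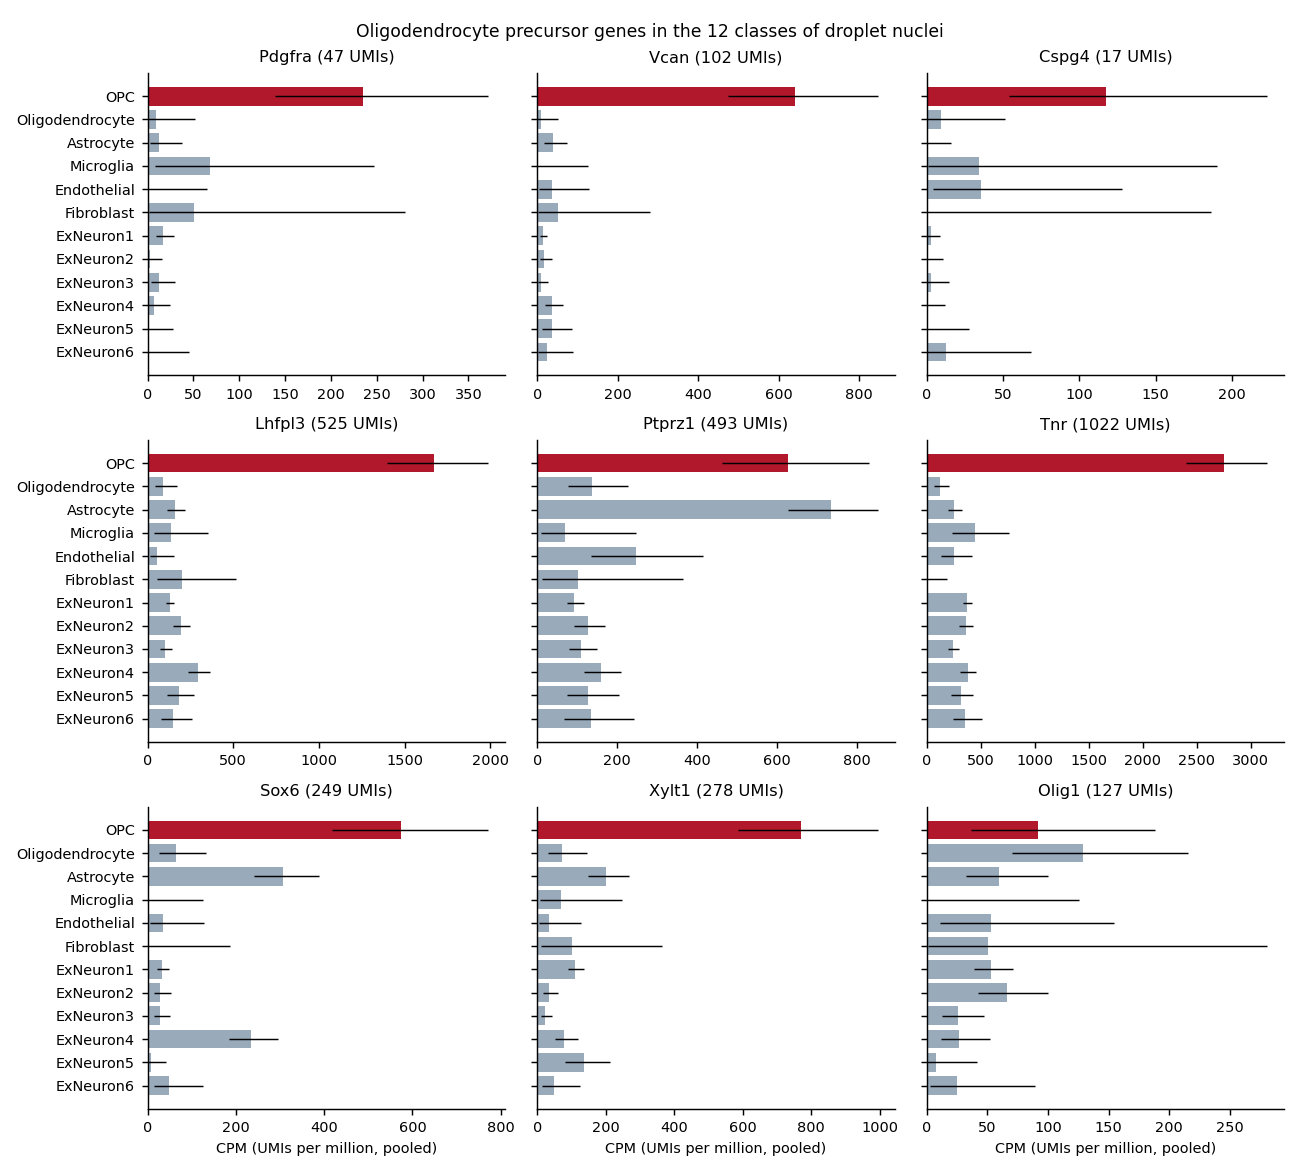
Level of each of the 9 genes in the 12 authors' classes of droplet nuclei, in CPM of summed UMIs, with 95% exact Poisson intervals for counting error. The OPC class is highest for 7 of the 9 genes, astrocytes are highest for Ptprz1 (735 CPM) and oligodendrocytes for Olig1 (129 CPM).

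The receptor Pdgfra was rare but concentrated in this class. Its 47 UMIs fell into 18 from OPC nuclei and 29 from all others, which is 235 CPM (139 to 372) against 11.5 CPM, a ratio of 20.5. It was seen in 17 of 215 OPC nuclei (7.91%) and in 0.425% of other nuclei. After thinning, the shares were 7.09% and 0.325%. The next classes, microglia and fibroblasts, rested on 2 UMIs and 1 UMI.

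Vcan, whose product is a large matrix proteoglycan, gave 49 of its 102 UMIs in OPC nuclei, at 640 CPM (474 to 846) against 21.0 CPM elsewhere. It was seen in 43 of 215 OPC nuclei and in 0.778% of the others. Cspg4, the proteoglycan by which these cells are often stained, gave 9 of its 17 UMIs in the class, at 118 CPM (53.8 to 223) against 3.16 CPM. At this depth the Cspg4 share was 4.19% of OPC nuclei, the second lowest of the 9. Ptprz1 had a different distribution. Astrocytes held 735 CPM (629 to 853) and OPC nuclei 627 CPM (462 to 831), intervals that overlap, and all nuclei outside the OPC class held 176 CPM.

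Tnr was the most abundant of the 9 in the class, with 211 UMIs and 2756 CPM (2397 to 3154), against 321 CPM elsewhere. It was seen in 47.4% of OPC nuclei and in 10.6% of others, or 45.4% and 9.07% after thinning. Its level in every class but fibroblasts was above 0, with 377 CPM in ExNeuron4 and 120 CPM in oligodendrocytes. Xylt1, the enzyme that primes chondroitin sulfate chains, reached 771 CPM (587 to 994) in the OPC class and 201 CPM (148 to 267) in astrocytes, the next class.

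Of the transcription factors, Sox6 stood at 575 CPM (418 to 772) in OPC nuclei, 308 CPM (241 to 387) in astrocytes and 235 CPM (183 to 296) in ExNeuron4, so that the intervals of the last 2 overlap. Olig1 was lower and spread over classes. It had 7 UMIs in the OPC class, at 91.4 CPM (36.8 to 188), and 14 UMIs in oligodendrocytes, at 129 CPM (70.4 to 216). The intervals of those levels overlap, and the level in all nuclei outside the OPC class was 47.5 CPM (39.3 to 56.7). Lhfpl3 held 128 of its 525 UMIs in the class, at 1672 CPM (1395 to 1988), against 294 CPM (236 to 362) in ExNeuron4.

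The order of the levels depended on how gene length was counted. Per kilobase of gene, Olig1, which has a gene of 2162 bases that is all exon, was highest in the OPC class, at 42.3 CPM per kilobase. This value rests on 7 UMIs. Vcan followed Olig1 at 7.34, Tnr at 6.76 and Pdgfra at 5.12 CPM per kilobase, and Sox6 was lowest at 1.01. Per kilobase of exon, Lhfpl3 was highest at 520 CPM, followed by Tnr at 214, Xylt1 at 79.9, Vcan at 44.3, Ptprz1 at 44.0 and Olig1 at 42.3, and Cspg4 was lowest at 9.85. Whether reads in introns were counted is not stated in the labels or headers.

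Several of the 9 genes were often seen in the same nucleus. At least 3 of them had a UMI in 72 of 215 OPC nuclei (33.5%) and in 35 of 6816 other nuclei (0.513%). Thinned to 300 UMIs, the numbers were 40 of 141 (28.4%) and 8 of 4310 (0.186%).

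The OPC class was made of 2 of the authors' clusters, and the 9 genes were not spread evenly over them. Cluster 8 had 154 nuclei and cluster 14 had 61 nuclei, with median depths of 345 and 322 UMIs. All 18 Pdgfra UMIs, all 9 Cspg4 UMIs and all 7 Olig1 UMIs were in cluster 8. The exact interval for 0 UMIs in cluster 14 has an upper limit of 176 CPM for each. Cluster 8 held 323 CPM of Pdgfra (192 to 511), 162 CPM of Cspg4 (74.0 to 307) and 126 CPM of Olig1 (50.6 to 259). Only the Pdgfra interval lies above that limit.

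Lhfpl3 stood at 2174 CPM (1804 to 2598) in cluster 8 and 335 CPM (135 to 690) in cluster 14. Xylt1 stood at 1024 CPM (776 to 1327) and 95.7 CPM (11.6 to 346). Vcan stood at 791 CPM (575 to 1061) and 239 CPM (77.6 to 558). For these 3 genes and Pdgfra, 4 of the 9, the interval in cluster 8 lies above that in cluster 14. The same held for 0.938% of 3731 genes with at least 5 UMIs in the class, and 1.21% had the reverse. Tnr had overlapping intervals in both, with 2821 CPM (2397 to 3299) and 2583 CPM (1940 to 3370), as had Sox6 and Ptprz1. The 9 genes summed to 8860 CPM in cluster 8 and 3826 CPM in cluster 14. At least 3 of them were seen in 68 of 154 nuclei (44.2%) of cluster 8 and in 4 of 61 nuclei (6.56%) of cluster 14.

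Other listed genes, chosen after their values were seen, lay in both directions. Of the lineage list, Pcdh15, Nxph1, Dscam and Epn2 had intervals in cluster 8 above those in cluster 14, and Bcas1 and Tcf7l2 had the reverse, which is 4 and 2 of the 21 lineage genes with at least 5 UMIs. Bcas1, a marker of oligodendrocytes in an early stage of myelin formation, stood at 395 CPM (248 to 599) in cluster 8 and 1770 CPM (1246 to 2439) in cluster 14. Fyn, a kinase of the signalling list that acts in oligodendrocyte differentiation, stood at 323 CPM (192 to 511) and 1961 CPM (1407 to 2660). Tcf7l2, a transcription factor of differentiating oligodendrocytes, stood at 108 CPM (39.6 to 235) in cluster 8 and had 11 UMIs, an interval of 263 to 941 CPM, in cluster 14. Pcdh15 stood at 1815 CPM in cluster 8 and 430 CPM in cluster 14, and Dscam at 2139 and 717 CPM. Among genes with at least 10 UMIs in the cluster, the largest ratios to nuclei outside the class were those of Vcan and Matn4 in cluster 8. In cluster 14 they were those of Bcas1 and Arhgap24. Some genes with fewer UMIs had larger ratios, such as Cspg4 in cluster 8 (9 UMIs) and Bmp4 in cluster 14 (4 UMIs). Clusters of 1 library were compared here, and the groups were made from these genes, so no test was made.

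**Figure D2:**
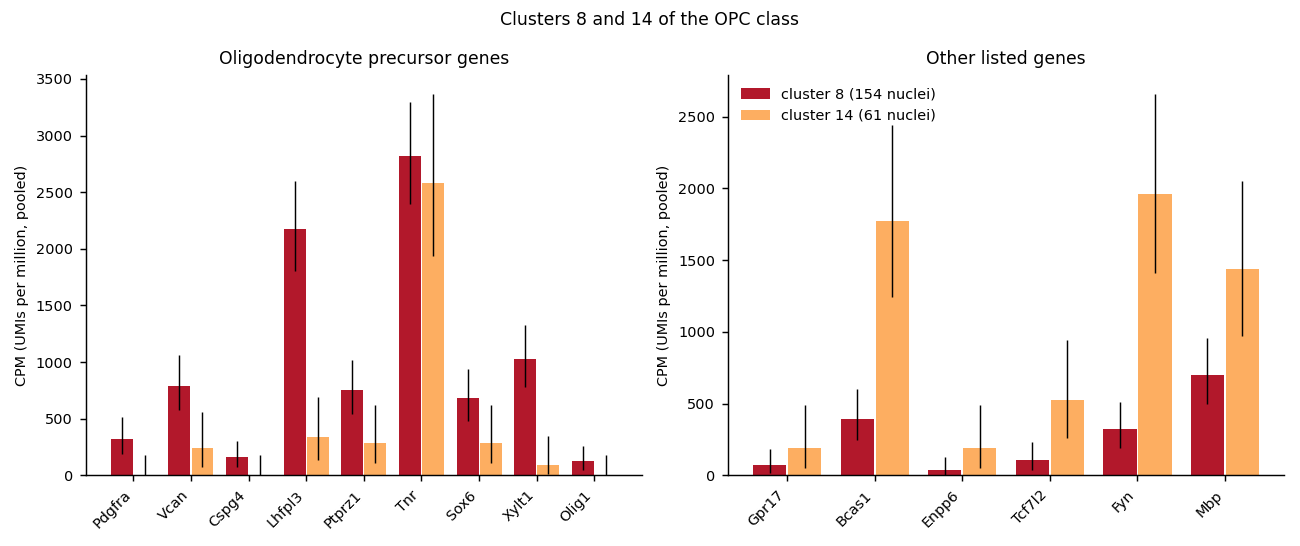
Levels of the 9 genes and of other listed genes in the authors' clusters 8 (154 nuclei) and 14 (61 nuclei) of the OPC class, in CPM of summed UMIs with 95% exact Poisson intervals. Pdgfra, Cspg4 and Olig1 have 0 UMIs in cluster 14, Tnr has overlapping intervals in both clusters, and Bcas1, Fyn and Tcf7l2 are higher in cluster 14.

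Beyond the 9 genes, 25 lineage genes, 22 genes of platelet-derived growth factor signalling and 34 genes of the chondroitin sulfate matrix were listed. The OPC class was the highest class for 18 of 25 lineage genes, for 1 of 22 signalling genes (Fyn) and for 7 of the 32 matrix genes that had a UMI, against 8.87% of the 17141 genes with a UMI. Several of these rested on few UMIs in the class, such as Nkx2-2 with 3, Bmp4 with 4 and Has2 with 1. Over genes with at least 200 UMIs, the class was highest for 7 of 11 lineage, 1 of 9 signalling and 3 of 5 matrix genes, against 6.99% of 2734 genes. Among those with at least 200 UMIs, Dscam (1750 against 358 CPM elsewhere, a ratio of 4.89), Epn2 (588 against 112 CPM), Fyn (771 against 185 CPM) and Bcan, the proteoglycan brevican (431 against 90.6 CPM), were at least 4-fold higher in the class. Mature oligodendrocyte markers summed to 3187 CPM in the class, and inhibitory neuron, astrocyte and excitatory neuron markers to 2077, 1829 and 1032 CPM.

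Over the 12 classes, the genes whose level followed the summed 9 genes most closely were Bcan (Pearson's r of log2 CPM 0.823), Mark3 (0.803), Tnpo1 (0.795), Grin3a (0.792) and Fyn (0.782), from genes with at least 200 UMIs. The nearest gene to Ptprz1 was Gpc5 (0.948), which was highest in astrocytes. The nearest to Tnr was Zfp462 (0.937), to Vcan Sgcd (0.924), to Lhfpl3 Mark3 (0.893), to Pdgfra Usp24 (0.891) and to Sox6 Zfp608 (0.848). For Olig1 it was Ubxn4 (0.821), for Xylt1 Lhfpl3 (0.799) and for Cspg4 Eif1b (0.785). These correlations describe 12 classes of 1 library that differ in depth and number of nuclei.

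In the SCRB-Seq wells, which compared FFPE nuclei (mean of the 3 methods) with frozen nuclei, Ptprz1 was higher and Tnr lower in FFPE wells, and Xylt1 did not pass the test. These 3 were the members that passed the filter on low counts, which asked for 174 CPM in at least 15 of the 64 wells. By edgeR's quasi-likelihood test, 857 of 1478 genes tested (58.0%) were called at an adjusted p under 0.05, 447 higher (30.2%) and 410 lower (27.7%), so that 2 called members of 3 lies near the background. In bulk wells, fewer cells of a type and less RNA per cell cannot be told apart.

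Ptprz1 reads ran from 28.2 to 698 CPM with a median of 115 CPM in the heated xylene wells, from 43.4 to 431 (median 135) in the room-temperature xylene wells and from 0 to 1949 (median 167) in the mineral oil wells. The frozen wells ran from 0 to 203 CPM with a median of 49.6. The groups overlapped, with 38 of 48 FFPE wells above the frozen mean and 13 above the highest frozen well. The means were 230 ± 321 CPM (SD, n = 48) and 60.8 ± 55.9 CPM (SD, n = 16), and the log2 fold change was 1.72 (SE 0.43, edgeR adjusted p = 0.00036). Ptprz1 passed the filter through its FFPE wells, with 21 of 48 FFPE wells and 1 of 16 frozen wells at the level it asked for, so this call was partly fixed by the filter. With no filter, where 4785 of 19006 genes (25.2%) were called, Ptprz1 was called higher at 1.78 (SE 0.43, edgeR adjusted p = 0.00065).

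Tnr ran from 84.6 to 1142 CPM (median 231) with heated xylene, from 46.5 to 761 (median 278) with room-temperature xylene and from 0 to 1036 (median 151) with mineral oil. The frozen wells ran from 159 to 827 CPM with a median of 424. In 42 of 48 FFPE wells Tnr was below the frozen mean, and the ranges overlapped. The means were 288 ± 245 CPM (SD, n = 48) and 453 ± 203 CPM (SD, n = 16), and the log2 fold change was -0.67 (SE 0.28, edgeR adjusted p = 0.033). This call was lost in the wells of 10 nuclei alone (edgeR adjusted p = 0.22) and with no filter on low counts (edgeR adjusted p = 0.16).

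Xylt1 ran from 12.8 to 1347 CPM (median 124), 36.3 to 419 (median 132) and 0 to 799 (median 201) in the 3 kinds of FFPE well, in the same order, and from 54.1 to 593 (median 185) in the frozen wells. The log2 fold change was -0.15 (SE 0.34, edgeR adjusted p = 0.72). Scaling mattered for this comparison. With the size factors of DESeq2 in edgeR, the median log2 fold change of all genes moved from 0.00 to -0.58 and the calls from 447 higher and 410 lower to 309 higher and 674 lower. Under that scaling Xylt1 was called lower (-0.78, edgeR adjusted p = 0.038) and Tnr stood at -1.29, while Ptprz1 stayed higher at 1.14.

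**Figure D3:**
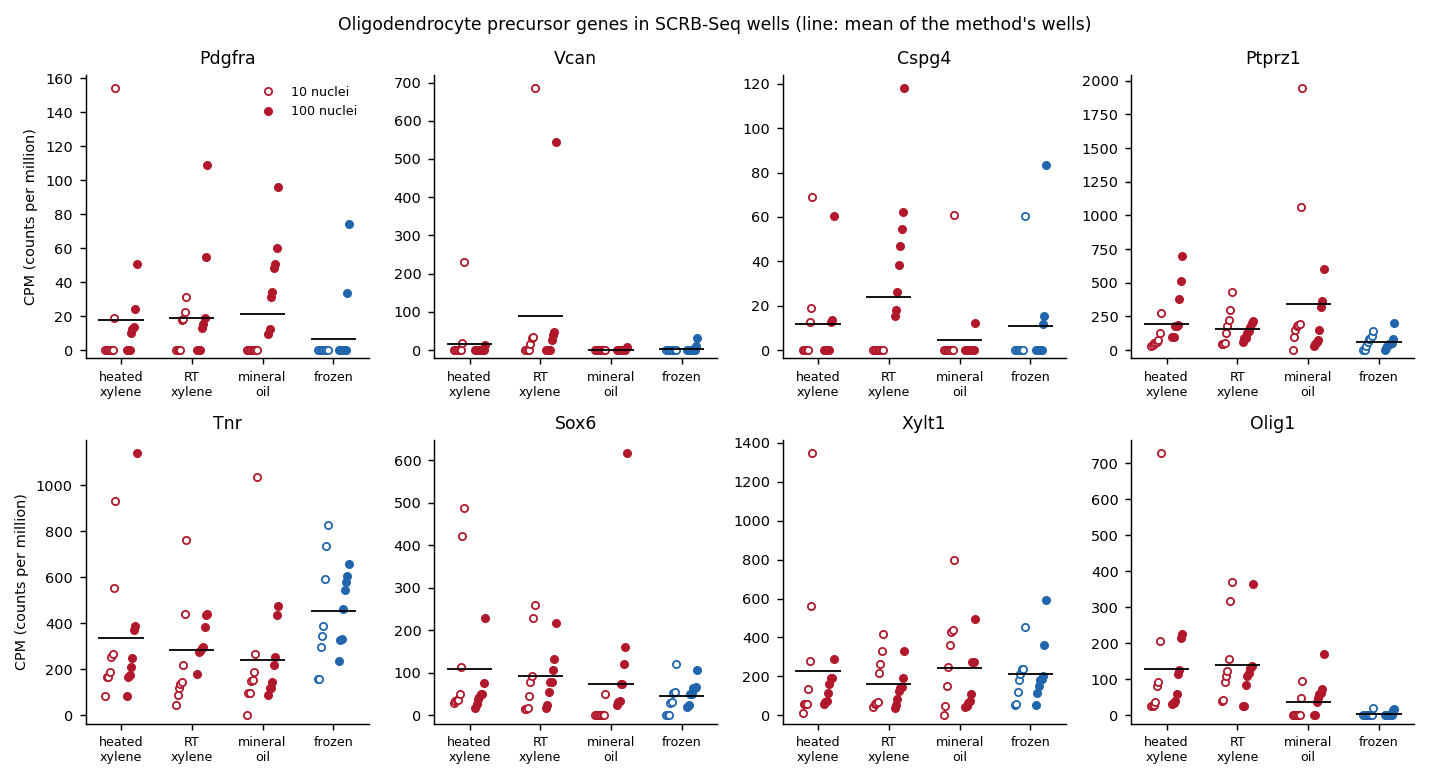
SCRB-Seq level of members in each of the 64 wells, in CPM, by method and number of nuclei; each point is 1 well. Olig1 is at 0 in 13 of 16 frozen wells and has a count in 40 of 48 FFPE wells, and the ranges of Ptprz1 and Tnr overlap between FFPE and frozen wells.

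Olig1 did not pass the default filter, yet it had 326 counts in 40 of 48 FFPE wells and 3 counts in 3 of 16 frozen wells. Its wells ran from 25.2 to 728 CPM (median 71.4) with heated xylene, from 25.5 to 370 (median 114) with room-temperature xylene and from 0 to 172 (median 18.3) with mineral oil. The frozen wells ran from 0 to 20.2 CPM with a median of 0. All 40 FFPE wells with a count lay above the highest frozen well, which held a single count. A single count gives more CPM than this in any shallower well, so this order depends partly on depth. Pooled over wells, this was 110 CPM in FFPE and 2.82 CPM in frozen wells, a ratio of 38.9 with a counting interval of 13.2 to 190. With 3 frozen counts, and with no frozen well at the level a filter asks for, the difference is given as a description with no test. Olig1 was also seen in droplet oligodendrocytes, and the summed mature oligodendrocyte markers were higher in the same FFPE wells (2490 against 420 CPM); their part in the Olig1 difference was not tested.

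The rest of the 8 were sparse in SCRB-Seq. Sox6 ran from 17.7 to 488, 15.4 to 261 and 0 to 617 CPM in heated xylene, room-temperature xylene and mineral oil wells and from 0 to 121 CPM in frozen wells, and no test of it was made at the default filter. Pdgfra had a count in 24 of 48 FFPE wells and 2 of 16 frozen wells. Vcan had a count in 12 of 48 FFPE wells and 2 of 16 frozen wells, and 84 of its 105 FFPE counts were in 8 wells of room-temperature xylene. Cspg4 had a count in 16 of 48 FFPE and 4 of 16 frozen wells. The number of members seen per well was highest in the room-temperature xylene wells of 100 nuclei, with a median of 7 of 8, and lowest in the mineral oil and frozen wells of 10 nuclei, with a median of 3 of 8.

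Whether the FFPE difference depended on the number of nuclei was tested as an interaction. Of 2511 genes, 417 (16.6%) had a different FFPE difference at 10 and at 100 nuclei, and 0 of the 3 members tested were among them. The interaction was 0.24 for Tnr (SE 0.57, edgeR adjusted p = 0.83), 1.00 for Xylt1 (SE 0.67, edgeR adjusted p = 0.32) and -0.25 for Ptprz1 (SE 0.75, edgeR adjusted p = 0.87).

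In the SMART-Seq2 bulk wells, Xylt1 was the 1 member of 7 tested that was called, and it was lower in FFPE wells. Of 9092 genes tested, 372 (4.09%) were called, 132 higher (1.45%) and 240 lower (2.64%). In wells of 10, 50 and 100 nuclei, Xylt1 stood at 227, 52.3 and 174 CPM with heated xylene, at 0, 68.8 and 79.5 CPM with room-temperature xylene and at 5.85, 11.8 and 47.1 CPM with mineral oil. The frozen wells stood at 263, 337 and 255 CPM, so the 9 FFPE wells were all below the 3 frozen wells. The means were 74.1 ± 78.0 CPM (SD, n = 9) and 285 ± 45.1 CPM (SD, n = 3), and the log2 fold change was -2.63 (SE 0.75, edgeR adjusted p = 0.048). The call was narrow. With 1 well left out at a time, the log2 fold change ran from -3.05 to -2.33, and the call was kept in 3 of 12 cases and lost in 9 of 12, each frozen well among these (edgeR adjusted p from 0.019 to 0.27). The 3 cases that kept it left out the heated xylene well of 10 nuclei, the room-temperature xylene well of 10 nuclei or the mineral oil well of 100 nuclei.

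Tnr had the same direction without a call in that assay. It stood at 52.0, 589 and 375 CPM with heated xylene, 225, 418 and 247 CPM with room-temperature xylene, 9.75, 132 and 249 CPM with mineral oil and 432, 814 and 707 CPM in frozen wells. The FFPE wells were all below the frozen mean, though the ranges overlapped. The log2 fold change was -1.73 (SE 0.58, edgeR adjusted p = 0.11), and it passed the threshold with no filter (edgeR adjusted p = 0.020), with the number of nuclei as a covariate (edgeR adjusted p = 0.023) and without the mineral oil well of 100 nuclei (edgeR adjusted p = 0.049).

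Ptprz1 stood at 417, 295 and 452 CPM with heated xylene, 0, 240 and 257 CPM with room-temperature xylene and 13.7, 246 and 256 CPM with mineral oil. The frozen wells stood at 0, 55.5 and 79.3 CPM, and 7 of 9 FFPE wells were above the highest of these. The log2 fold change of 2.05 did not pass the test (SE 1.14, edgeR adjusted p = 0.43). The 2 FFPE wells below were wells of 10 nuclei.

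**Figure D4:**
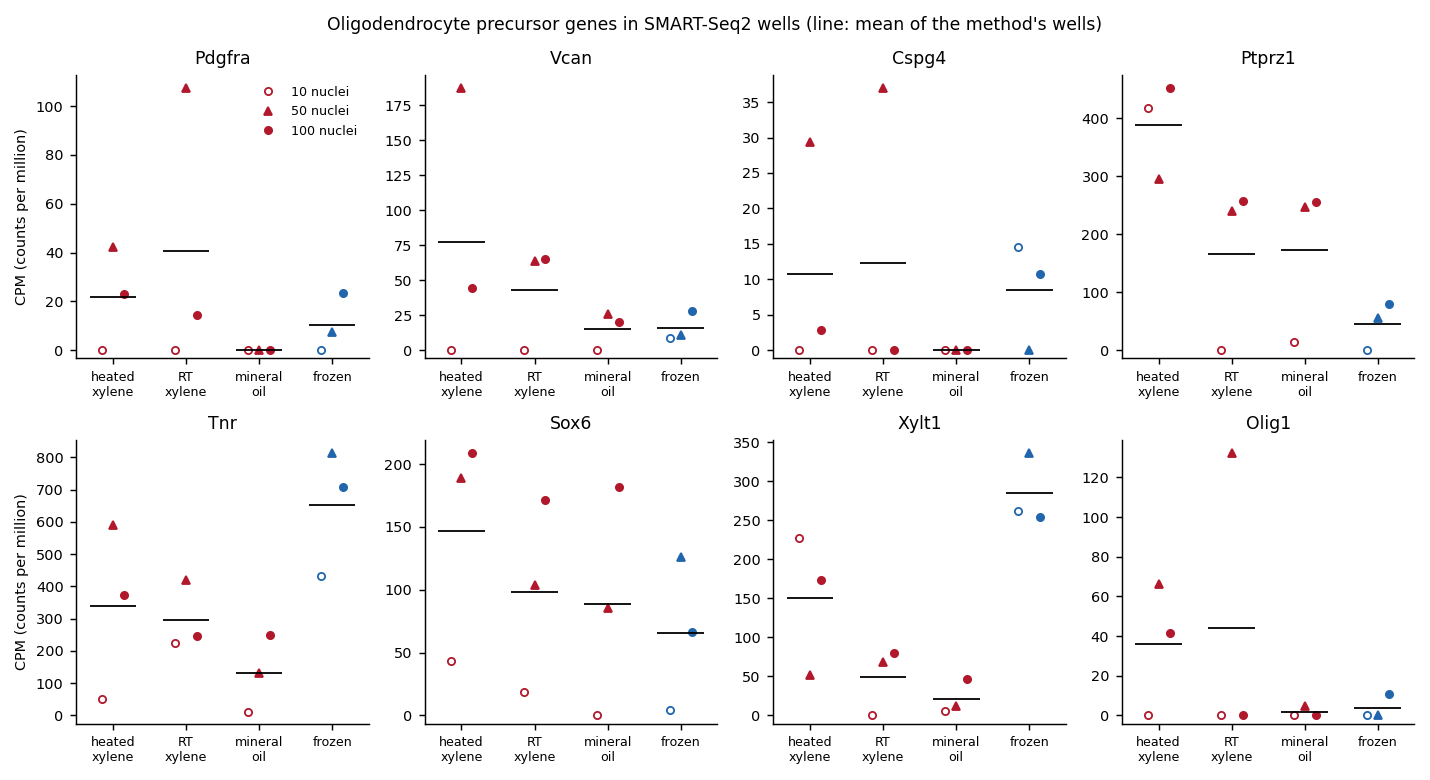
SMART-Seq2 bulk level of the 8 members in each of the 12 wells, in CPM, by method; each point is 1 well of 10, 50 or 100 nuclei. All 9 FFPE wells of Xylt1 lie below the 3 frozen wells, and 7 of 9 FFPE wells of Ptprz1 lie above them.

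Pdgfra had 0 counts in all 3 mineral oil wells of this assay and stood at 0, 42.1 and 23.0 CPM with heated xylene, 0, 108 and 14.3 CPM with room-temperature xylene and 0, 7.40 and 23.6 CPM in frozen wells. Its log2 fold change of -1.15 (SE 1.17, edgeR adjusted p = 0.76) has the opposite sign to the difference of the mean CPM, which was 20.8 ± 35.7 (SD, n = 9) in FFPE and 10.3 ± 12.1 (SD, n = 3) in frozen wells. Cspg4 was at 0 in the mineral oil wells too, reached 37.0 CPM in 1 room-temperature xylene well and was not tested at the default filter. Vcan, Sox6 and Olig1 had log2 fold changes of 0.89, 0.51 and 1.53, with standard errors of 1.49, 1.04 and 2.05 and edgeR adjusted p of 0.88, 0.89 and 0.83.

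Among the 3 ways of removing paraffin, 0 of 3 members tested in SCRB-Seq were called at the default filter in any pair. The background was 92 of 1080 genes (8.52%) for mineral oil against heated xylene, 21 (1.94%) for heated against room-temperature xylene and 111 (10.3%) for mineral oil against room-temperature xylene. Olig1 did not pass that filter. With the looser filter, of at least 3 counts, 1 of 5 members tested, Olig1, was called lower in mineral oil than in each xylene (10.3% of 3909 genes called lower against heated xylene and 9.77% against room-temperature xylene). Olig1 passed that filter with the help of its xylene wells, so these calls are not used as support. Its median was 18.3 CPM in the mineral oil wells, 71.4 CPM with heated xylene and 114 CPM with room-temperature xylene, and the 3 ranges overlapped. Vcan had 1 count in the mineral oil wells and 84 in the room-temperature xylene wells. The mineral oil wells were the shallowest. In SMART-Seq2, edgeR called 0 of 8372 genes (0.0%) in each of the 3 pairs, with 314, 199 and 379 genes at an unadjusted p under 0.05 for mineral oil against heated xylene, heated against room-temperature xylene and mineral oil against room-temperature xylene. The Wald test of DESeq2 called 20, 1 and 26 genes for the same pairs.

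The other listed genes moved in both directions between FFPE and frozen wells. Of the 25 lineage genes, 7 were tested in SCRB-Seq, where 2 rose and 4 fell (median log2 fold change -0.93, against 0.00 for all genes), against a background of 58.0% called. With the looser filter, of at least 3 counts, 12 were tested, 4 were higher and 5 lower (median -0.40, against -0.15 for all genes), where 38.6% of all genes were called. In SMART-Seq2, 14 were tested, 1 rose and 3 fell (median -0.89, against -0.13), beside 372 of all 9092 genes (4.09%). Megf11, a cell surface protein gene, was higher in FFPE wells in both assays, by 1.52 (edgeR adjusted p = 0.0011) and 2.66 (edgeR adjusted p = 0.0059). In SCRB-Seq it passed the filter through 24 of 48 FFPE wells and 2 of 16 frozen wells, and with no filter it stood at 1.60 (edgeR adjusted p = 0.0020). Tmem132d, a transmembrane protein gene, was lower in both, by -1.01 (edgeR adjusted p = 0.0015) and -3.49 (edgeR adjusted p = 0.00086). Gria3, which encodes an AMPA receptor subunit, fell by 1.89 and 2.33, and Dscam, an adhesion molecule gene, fell by 1.61 and 2.01 on the log2 scale. In SMART-Seq2 the calls of these 2 genes depended on the frozen wells. That of Gria3 was lost without any 1 of the 3 frozen wells (edgeR adjusted p from 0.059 to 0.14), and that of Dscam without the frozen well of 10 or of 100 nuclei (edgeR adjusted p of 0.067 and 0.17). The SCRB-Seq call of Tmem132d was lost in the wells of 10 nuclei alone (edgeR adjusted p = 0.20). Pcdh15, a protocadherin gene, was 1.30 higher in SCRB-Seq (edgeR adjusted p = 1.2e-05) and stood at -2.06 in SMART-Seq2, where it did not pass the test (edgeR adjusted p = 0.16). In the droplets, 3 of these genes were highest in a neuron class. Megf11 led in ExNeuron3 (393 CPM), Gria3 in ExNeuron4 (675 CPM) and Tmem132d in ExNeuron1 (388 CPM). The OPC class held 392, 575 and 300 CPM of them. Dscam and Pcdh15 were highest in the OPC class. The part of neurons in these changes was not tested.

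Of the 22 signalling genes, 4 were tested in SCRB-Seq and 3 were called higher (median 1.18). The filter chose these 4, and over the 12 genes that passed the looser filter the median was -0.02 and 2 were called (38.6% of all genes called). Among the 3 were Pdgfd, which encodes a ligand of the family (3.49), and Grb2, which encodes a downstream adaptor (0.78, edgeR adjusted p = 0.047). Pdgfd passed the filter through its FFPE wells alone, with 23 of 48 FFPE wells and 0 of 16 frozen wells at the level it asked for, and with no filter it stood at 3.44 (edgeR adjusted p = 1.4e-08). With the size factors of DESeq2 (66.5% of all genes called), 2 of the 4 were higher and 1 lower, with a median of 0.57. Grb2 was not called with those size factors (0.18, edgeR adjusted p = 0.65) or with the looser filter (0.72, edgeR adjusted p = 0.11), while Pdgfd was called in both. In SMART-Seq2, 20 were tested and 0 passed (median 0.13). Of the 34 matrix genes, 5 were tested in SCRB-Seq, where Hapln1, which encodes a link protein of the matrix, was 2.62 higher and Chsy3, which encodes a chondroitin synthase, fell by 1.14 (edgeR adjusted p = 0.015), a call lost in wells of 100 nuclei alone (-0.50, edgeR adjusted p = 0.37) and with no filter (edgeR adjusted p = 0.055). Hapln1 passed the filter through its FFPE wells alone (29 of 48, and 0 of 16 frozen wells), and with no filter it stood at 2.59 (edgeR adjusted p = 4.3e-08). In SMART-Seq2, 15 were tested and 0 passed (median 0.04). Few list members could be tested in SCRB-Seq, and their counts lie against a background of 58.0%.

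On the plates, frozen nuclei showed each of the 8 members in a larger share of libraries than FFPE nuclei. The labels do not divide the libraries of either arm into separate animals, so no test was made. The same held for 95.8% of the 14821 genes seen in at least 10 libraries, so that 8 of 8 lies near the background. The shares for FFPE and frozen nuclei were 8.39% and 21.9% for Pdgfra, 6.99% and 27.0% for Cspg4, 20.3% and 32.1% for Vcan, 30.1% and 55.5% for Ptprz1, 58.7% and 78.1% for Tnr, 25.9% and 47.4% for Sox6 and 32.9% and 66.4% for Xylt1. Olig1 was seen in 24 of 143 FFPE and 52 of 137 frozen libraries. The frozen libraries were deeper. Markers of other cell types differed too. Pooled over FFPE and frozen libraries, the 11 mature oligodendrocyte markers summed to 3193 and 3005 CPM (0 to 22393 and 0 to 13260 per library) and the astrocyte markers to 1381 and 1674 CPM. Excitatory neuron markers summed to 420 and 1620 CPM, and cerebellar granule neuron markers to 431 and 6.95 CPM. Their part in the member shares and levels was not tested. With each library thinned to 10000 counts, which left 135 FFPE and 127 frozen libraries, the frozen share was larger for 7 of 8 members and for 85.9% of 9636 genes, so that this count too lies near the background. Of the 7, Tnr and Xylt1 had intervals that do not overlap between FFPE and frozen libraries, and the intervals of Pdgfra, Cspg4, Ptprz1, Sox6 and Olig1 overlap. Over all 9636 genes, 31.4% had a frozen interval above the FFPE interval. Pdgfra was then seen in 3 of 135 FFPE libraries (2.22%, 0.461 to 6.36) and 13 of 127 frozen libraries (10.2%, 5.56 to 16.9). Xylt1 was seen in 27 of 135 (an interval of 13.6 to 27.7%) and in 49.6% (40.6 to 58.6), and Tnr in 39.3% (31.0 to 48.0) and 63.8% (54.8 to 72.1). Vcan was the exception, in 20 of 135 FFPE libraries (14.8%) and 10 of 127 frozen libraries (7.87%), with intervals that overlap. With 1 library per profile, the thinned shares of Xylt1 were 22.4% and 48.5% and those of Tnr 36.7% and 61.8%. Again 7 of 8 members had the larger share in frozen libraries, beside 94.8% of genes at full depth and 86.4% after thinning. In that set the intervals of Pdgfra (0.0258 to 5.55% and 8.36 to 27.1%) and Cspg4 (0.0258 to 5.55% and 6.23 to 23.6%) did not overlap. Nor did those of Tnr and Xylt1, while those of Vcan, Ptprz1, Sox6 and Olig1 overlap. The share of all genes with separated intervals in that set was not computed. With profiles joined at 0.7, a threshold chosen after seeing the data, the thinned shares were larger in frozen libraries for 8 of 8 members. The same held for 87.9% of genes at full depth and 69.7% after thinning. Vcan changed order (9.88% in FFPE and 15.2% in frozen libraries). At that threshold the intervals of all 8 members overlap between FFPE and frozen libraries. Tnr had 23.2 to 44.7% and 32.9 to 63.1%, and Xylt1 had 12.7 to 31.5% and 28.9 to 58.9%. Each set of libraries was thinned in a random draw of its own, and the spread between draws was not measured.

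**Figure D5:**
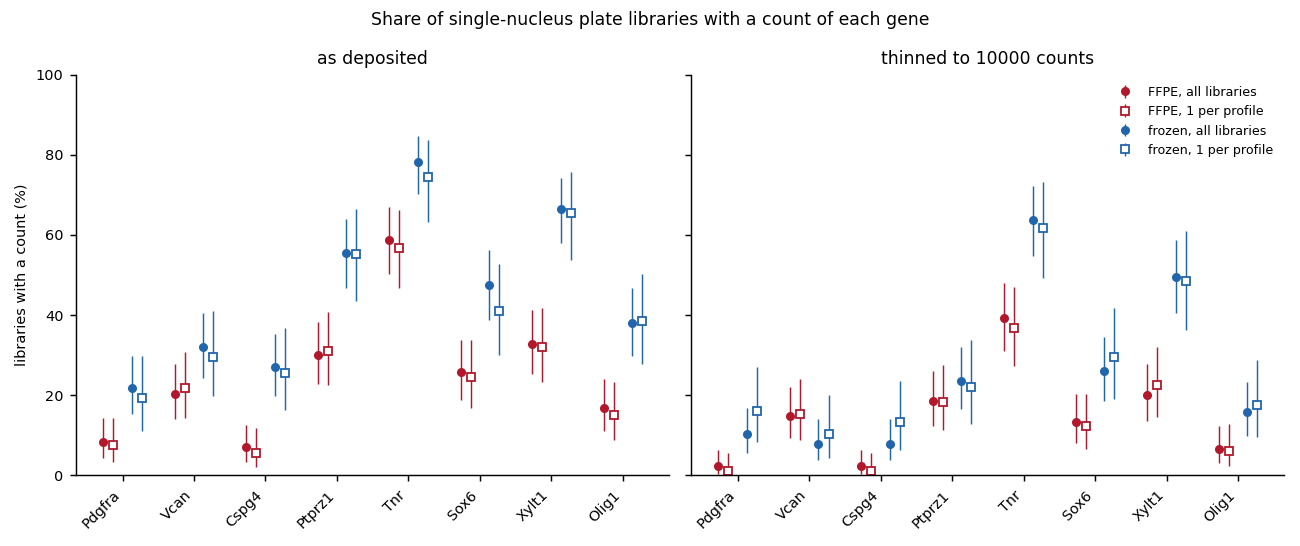
Share of plate libraries with a count of each of the 8 members, in percent with 95% exact binomial intervals, for FFPE and frozen nuclei of the whole-series table, at full depth and thinned to 10000 counts. Frozen shares are larger for 8 of 8 genes at full depth and for 7 of 8 after thinning, with Vcan as the exception.

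The pooled levels depended on a few libraries. Over all libraries, on the pooled scale, Pdgfra stood at 9.27 CPM in FFPE and 168 CPM in frozen nuclei, an 18.1-fold difference, and it was the 1 member of 8 at least 4-fold lower in FFPE. The background was 17.9% of 11302 genes at least 4-fold lower and 17.1% at least 4-fold higher. With the mean of the libraries' CPM in place of the pooled level, Pdgfra (30.0-fold) and Sox6 (4.16-fold) were at least 4-fold lower in FFPE, and Cspg4 was 4.39-fold higher, at 328 CPM against 74.9 CPM. On that scale 21.7% of 10871 genes were at least 4-fold lower and 15.4% at least 4-fold higher. With 1 library per profile on the same scale, Cspg4 was 2.53-fold higher, and Pdgfra (61.3-fold), Olig1 (5.33-fold), Sox6 (4.79-fold) and Tnr (4.53-fold) were at least 4-fold lower, against 21.9% of genes. A single library held 83.1% of the FFPE Pdgfra counts. The frozen level rested on few libraries too. Without the 4 frozen libraries that held all 8 members after thinning, which were chosen by these values, the remaining frozen libraries held 4.25 CPM of Pdgfra, 8.46 CPM of Cspg4 and 23.3 CPM of Olig1, each below the FFPE level over all libraries (9.27, 52.0 and 31.5 CPM). Vcan was below the FFPE level of 37.9 CPM both with these libraries (36.2 CPM) and without them (18.1 CPM). Tnr (704 CPM), Sox6 (93.6 CPM) and Xylt1 (418 CPM) stayed above their FFPE levels. Without the 9 FFPE libraries that are in no batch table, Pdgfra stood at 2.08 CPM in FFPE, an 80.9-fold difference, and Tnr (6.03-fold) and Sox6 (4.33-fold) were also at least 4-fold lower, against 24.9% of genes. With 1 library per profile, Pdgfra (19.1-fold) and Xylt1 (4.71-fold) were at least 4-fold lower, against 18.5% of genes.

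Ptprz1 stood at 559 CPM in FFPE and 186 CPM in frozen nuclei, but 1 FFPE library held 85.9% of its counts. Without the 9 libraries the FFPE level was 90.8 CPM, below the frozen level. Cspg4 stood at 52.0 CPM in FFPE and 90.8 CPM in frozen nuclei, and at 115 CPM in FFPE without the 9 libraries. Most FFPE Cspg4 counts came from 2 libraries with alike profiles (r = 0.95), with 627 and 530 counts or 25359 and 21448 CPM. Tnr stood at 375 and 1297 CPM, Xylt1 at 162 and 628 CPM, Sox6 at 52.1 and 115 CPM, Olig1 at 31.5 and 79.9 CPM and Vcan at 37.9 and 36.2 CPM. In FFPE batch 1, which is in no comparison with frozen nuclei, the levels were 1.04 CPM for Pdgfra, 0.806 for Cspg4, 39.4 for Vcan, 182 for Ptprz1, 196 for Tnr, 117 for Sox6, 46.5 for Xylt1 and 45.4 for Olig1.

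More members were seen per frozen library than per FFPE library, as the larger single-gene shares give. After thinning, at least 3 of the 8 were seen in 41 of 127 frozen libraries (32.3%), 20 of 135 FFPE libraries (14.8%) and 7 of 90 libraries of FFPE batch 1 (7.78%). With 1 library per profile the numbers were 23 of 68, 12 of 98 and 6 of 82. After thinning, all 8 were seen in 4 frozen libraries and in 0 FFPE libraries, and without thinning in 19 frozen and 2 FFPE libraries. The 4 held 97.6% of the frozen Pdgfra counts, 91.1% of Cspg4, 72.0% of Olig1, 51.9% of Vcan, 47.9% of Tnr, 42.9% of Ptprz1, 36.2% of Xylt1 and 21.9% of Sox6. Their Pdgfra counts were 3152 in library D9 and 501 in E10 of plate 1, and 6729 in B4 and 51 in D3 of plate 2. D9 and B4 had nearly the same profile (r = 0.988), and E10 and D3 correlated at 0.751, so the 4 libraries hold 3 profiles at a threshold of 0.9 and 2 at 0.7. E10 also carried 4408 CPM of mature oligodendrocyte markers, against 73.4 CPM in D9.

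Among the FFPE libraries, 3 had alike profiles with high levels of several members. These libraries, G4 of plate MB16 and B2 and B4 of plate MB14, correlated with each other at 0.95 to 0.97. They held 3635, 3495 and 3608 CPM of Tnr, 3893, 3830 and 3463 CPM of Xylt1 and 1160, 1085 and 1161 CPM of Olig1, beside 3, 1 and 4 counts of Pdgfra. All 8 members had a count in G4, which was 1 of the 2 FFPE libraries with all 8 before thinning.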

How the data were processed

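Gene counts were measured in SCRB-Seq wells, SMART-Seq2 wells, plate nuclei and droplet nuclei. The authors deposited raw counts per gene and library, which sum to the totals in their annotation, and UMI counts for the droplets. The submitters' processing notes name the builds hg19 and mm10. The sources used here give neither the aligner and counter nor whether SCRB-Seq counts used UMIs or strand. Tests used the mouse rows of SCRB-Seq only. The members and lists were chosen with earlier results of these data known.

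Wells were grouped by the authors' annotation. Tests used edgeR 4.0.16 in R 4.3.3 (quasi-likelihood, TMM, filterByExpr with a minimum of 10 counts) over all mouse genes, with Benjamini-Hochberg adjusted p under 0.05. The standard error is the log2 fold change divided by the root of the F statistic. No pair of wells agreed within sampling noise (chi-square per degree of freedom at least 2.36 over 224 SCRB-Seq pairs and 2.92 over 12 SMART-Seq2 pairs). Droplet and plate nuclei were summed per class or arm with exact Poisson and Clopper-Pearson intervals. Likeness used log2(CPM + 10). All 9 members were named. Of the other lists, genes called between FFPE and frozen wells were named, up to 5 per list and assay, apart from a result that is not reported here. Other list genes in the droplets were chosen after their values were seen. The tests were checked on simulated counts. Alternatives were DESeq2 1.42.0 size factors and its Wald test, looser and no filters, wells of 10 or 100 nuclei, the number of nuclei as a covariate, each SMART-Seq2 well left out, thinning, and, chosen after seeing the data, 1 library per plate profile (joined above a correlation of 0.9 or 0.7) and the looser filter for the interaction.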

Additional observations from a re-analysis of the deposited data

Results flagged for a closer look

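In 48 groups of 8 SCRB-Seq wells (5 genes and the sum of the members in 8 pools), 17 highest wells stood apart from the next by more than Dixon's critical value of 0.526 of the group's range, where chance flags about 1 in 20. That rate assumes normally distributed values and need not hold for sparse counts, and in 2 groups (Olig1 in frozen wells of 10 nuclei, Sox6 in mineral oil wells of 10 nuclei) 1 well had a count and the rest were at 0, so that the gap is the whole range by construction. For Olig1, the highest well held 20.2 CPM against 0 in frozen wells of 10 nuclei, 728 against 207 in heated xylene wells of 10 nuclei, 172 against 72.8 in mineral oil wells of 100 nuclei and 363 against 138 in room-temperature xylene wells of 100 nuclei. For Ptprz1, it held 203 CPM against 85.8 in frozen wells of 100 nuclei and 276 against 131 in heated xylene wells of 10 nuclei. For Sox6, it held 121 CPM against 54.1 in frozen wells of 10 nuclei, 230 against 76.1 in heated xylene wells of 100 nuclei, 49.9 against 0 in mineral oil wells of 10 nuclei and 617 against 160 in mineral oil wells of 100 nuclei. For Tnr, it held 1142 CPM against 391 in heated xylene wells of 100 nuclei and 1036 against 266 in mineral oil wells of 10 nuclei. For Xylt1, it held 452 CPM against 239 in frozen wells of 10 nuclei and 1347 against 564 in heated xylene wells of 10 nuclei. The sum of the members held 2867 CPM against 1158 in heated xylene wells of 10 nuclei, 2385 against 1307 in heated xylene wells of 100 nuclei and 2089 against 1158 in room-temperature xylene wells of 100 nuclei.

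The SCRB-Seq table of these mouse wells also lists human genes, which were not used in the comparisons and hold 9.47% of all counts. Human SOX6 had 64 counts in 37 wells (59 in FFPE and 5 in frozen wells), LHFPL3 had 16 (15 and 1), TNR had 8 (8 and 0) and XYLT1 had 4 (4 and 0). There were 48 FFPE and 16 frozen wells, and the source of the human counts was not tested.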

How the results depend on the processing

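No difference of a member or of a list gene named here that passed the test changed its direction under an alternative; the directions of the other genes were not compared. Differences that had not passed it did, such as Xylt1 in SCRB-Seq (-0.15, and 0.33 in wells of 10 nuclei alone) and Vcan in SMART-Seq2 (0.89, and -1.29 with the number of nuclei as a covariate). Many counts of called genes moved. For FFPE against frozen wells in SCRB-Seq (857 genes called), no filter gave 4785, the looser filter 2096 and wells of 10 nuclei alone 478. The interaction with the number of nuclei (417) gave 1067 with the looser filter. For mineral oil against heated xylene (92), no filter gave 3415, the number of nuclei as a covariate 143, the looser filter 511 and wells of 100 nuclei 256. For heated against room-temperature xylene (21), the Wald test of DESeq2 gave 36, no filter 2899, the covariate 62, the looser filter 248 and wells of 100 nuclei 117. For mineral oil against room-temperature xylene (111), no filter gave 2925, the covariate 201, the looser filter 477 and wells of 100 nuclei 178. In SMART-Seq2, the Wald test of DESeq2 gave 641 in place of 372 for FFPE against frozen wells. It gave 20, 1 and 26 in place of 0 for mineral oil against heated xylene, heated against room-temperature xylene and mineral oil against room-temperature xylene, and no filter gave 19, 5 and 16. Leaving out 1 well at a time gave 162 to 469 for FFPE against frozen wells, 0 to 6 for mineral oil against heated xylene, 0 to 0 for heated against room-temperature xylene and 0 to 3 for mineral oil against room-temperature xylene. The cause of these shifts was not tested, apart from the number of genes and wells that a filter or subset itself changes. Likeness with a pseudocount of 1 CPM put Cspg5 in place of Grin3a among the 5 nearest genes, and with 50 CPM Nckap5 in place of Fyn. The nearest gene of single members also changed with the pseudocount or UMI minimum, for Cspg4 (Ubald1, Ptprj or Rps3a1), Sox6 (Ncam1, Npas3 or Phka1), Olig1 (Cbarp, Pias1 or Rcbtb1), Xylt1 (Tnpo1), Pdgfra (Ndufb5) and Vcan (Lhfpl3). Pooled plate levels of Ptprz1 and Cspg4 changed order between FFPE and frozen nuclei without the 9 libraries in no batch table. No paired analysis was possible because wells and nuclei carry no replicate numbers in the labels. SMART-Seq2 wells share their number of nuclei across methods, and with that number as a covariate 429 genes were called in place of 372.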
